A study of Mus musculus with 12 samples.

Results

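The 39 genes described here belong to the defence of the cell against oxidants and electrophiles that the transcription factor NRF2 (gene Nfe2l2) directs. They were chosen by name from a list of NRF2, its repressor and partners, and genes of glutathione, thioredoxin, pentose phosphate and iron storage metabolism. The rule used names and no measured value, but the genes were chosen with earlier results of these data known. All 39 were found among the 24318 gene rows of each deposited table. Messenger RNA had been sequenced from N2a cells, a mouse neuroblastoma line, in 3 groups of 4 libraries. Cells of the SE-BDEV group received brain-derived extracellular vesicles (BDEVs, membrane-bound particles that cells release) of the SE group, which the series title ties to status epilepticus, a prolonged seizure. Cells of the CON-BDEV group received BDEVs of the CON group, a name that the labels do not spell out, and the Vehicle group received vehicle. No genotype, dose or treatment time is given in the labels used here. Nor do they tell whether the libraries of 1 group are separate cultures or use separate vesicle preparations. The p-values therefore reflect the spread among these libraries alone, and that spread may be technical.

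NRF2 is held in the cytoplasm by KEAP1, which marks it for degradation. When oxidants or electrophiles modify KEAP1, NRF2 escapes, enters the nucleus, pairs with a small MAF protein and binds antioxidant response elements in the promoters of its targets. Those targets make glutathione, reduce thioredoxin, conjugate and export electrophiles, supply NADPH and store iron, and NRF2 itself is controlled largely at the level of its protein. Neurons are known for a weaker NRF2 response than astrocytes, and neuroblastoma lines are often used to study it.

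The core of the antioxidant response element, TGACNNNGC, was searched on both strands in RefSeq promoter windows of the GRCm38.p6 build, each covering 250 bases before to 50 bases after a gene's start. Windows were matched by symbol for 33 of the 39 genes and not for Hmox1, Gclc, Gsr, Prdx6, Gsta4 and Abcc1. The core was present for 12 of the 33 genes (36.4%), against 14.0% of all 27025 genes with a window, and in 12 of 45 windows (26.7%), against 12.4% of all 32851 windows. Besides the genes printed here, these were Srxn1, Gstm5, Pgd, Mgst1, Mafg and Sod1. The following 6 matches are shown because they lie in NRF2 itself, a small MAF partner and target genes of 4 different enzyme systems whose values are described further on. Each is written 5′ to 3′ on the strand of its gene, with the 9 bases of the core, or of its reverse complement, in capitals and 10 bases on either side.
Nfe2l2 (chr2:75704885-75704913, minus strand): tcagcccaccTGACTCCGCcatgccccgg
Maff (chr15:79346499-79346527, plus strand): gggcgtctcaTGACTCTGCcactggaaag
Gclm (chr3:122245413-122245441, plus strand): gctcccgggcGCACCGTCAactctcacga
Txnrd1 (chr10:82859104-82859132, plus strand): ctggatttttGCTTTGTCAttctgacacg
Prdx1 (chr4:116685456-116685484, plus strand): cagggaaagcGCTGAGTCAtcccccgtag
G6pdx (chrX:74428919-74428947, minus strand): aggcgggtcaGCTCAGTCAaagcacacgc
The Prdx1 match also holds TGAGTCA, the site of AP-1 factors, so the same letters serve for both motifs. A match says only that these letters stand in the window, and elements farther from the start were not searched.

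The estimated depth of a Vehicle library was 14100000 to 15300000 fragments; CON-BDEV libraries had 12300000 to 13600000 and SE-BDEV libraries 12500000 to 14400000. Of 10 markers of N2a cells, 9 had a mean above 1 FPKM (fragments counted per kilobase of transcript and per unit of library depth), all but Nefm, and their summed level was 832 to 864 FPKM in Vehicle, 829 to 907 in CON-BDEV and 775 to 883 in SE-BDEV. The 5 astrocyte markers were all under 1 FPKM, with sums of 0.990 to 1.14 in Vehicle, 0.640 to 0.855 in CON-BDEV and 0.744 to 1.02 in SE-BDEV. Above 1 FPKM were 2 of 5 oligodendrocyte markers, with sums over the list of 5.86 to 6.07 in Vehicle, 5.82 to 6.84 in CON-BDEV and 5.88 to 6.51 in SE-BDEV. For microglia it was 1 of 5, with sums of 1.41 to 2.14, 1.58 to 2.47 and 1.94 to 1.97 in the same order of groups. Endothelial cells had 1 of 4 (2.19 to 2.75, 2.16 to 2.49 and 1.84 to 2.91) and forebrain neurons 1 of 5 (5.81 to 6.28, 4.89 to 6.02 and 5.11 to 5.99). Choroid plexus had 1 of 3 (9.25 to 11.9, 10.7 to 12.2 and 9.09 to 12.3) and red blood cells 0 of 3 (0 to 0.0356, 0 to 0.115 and 0.0348 to 0.311). These sums overlapped between each BDEV group and Vehicle except those of astrocytes with CON-BDEV, which were lower, and their part in the results was not tested. The endothelial marker Cldn5, the forebrain neuron marker Neurod6 and the red blood cell marker Hbb-b1 were listed at 0 in all 12 libraries. The libraries came from 1 cell line, so these sums are levels of RNA and do not count cells of a type. The source of the low values was not tested.

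N2a cells expressed nearly the whole set. FPKM is a level per transcript length, so genes can be ranked on it, and the Vehicle means ran from 1789 ± 42.0 FPKM (SD, n = 4) for Ftl1, the light chain of ferritin, down to 0.295 ± 0.0519 for the microsomal transferase Mgst1. After Ftl1 came Fth1, the ferritin heavy chain, at 907 ± 24.3 FPKM. Next was Sod1, the cytosolic superoxide dismutase, at 677 ± 15.9 FPKM, followed by the peroxiredoxin Prdx2 at 435 ± 6.78 FPKM. These 4 did not overlap with each other in Vehicle, whereas the next in order, Gpx4 at 268 ± 4.46 FPKM and Prdx1 at 267 ± 4.01 FPKM, differed by less than their spread. Nfe2l2 itself had rank 28 at 23.7 ± 1.16 FPKM and Keap1 rank 29 at 18.7 ± 0.728 FPKM. The low end held genes often read as NRF2 targets, Nqo1 at 8.35 ± 0.433 FPKM and Srxn1 at 7.73 ± 0.730 FPKM. Mgst1 lay under the filter of a mean of 1 FPKM, was listed at 0 in SE-BDEV replicate 1 and CON-BDEV replicate 3, and reached no more than 0.353 FPKM, so 38 of the 39 genes were tested. Values of Ftl1, Gpx4, Prdx1, Prdx2 and Prdx6 are uncertain because RefSeq lists pseudogenes named after them, which could share reads. Pseudogenes under other names were not searched, so other members may be affected too.

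**Figure D1:**
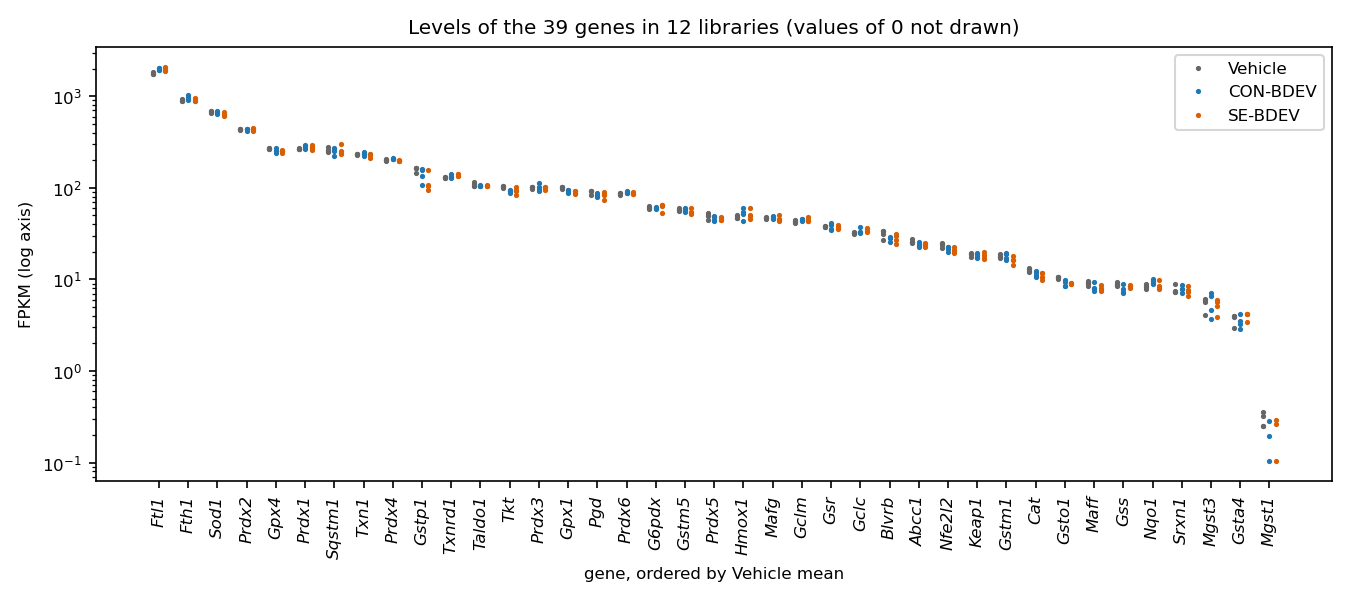
FPKM on a log axis for each of the 39 genes, ordered by Vehicle mean, with 1 point per library and 4 libraries per group (grey, Vehicle; blue, CON-BDEV; orange, SE-BDEV). The levels of a gene in the 3 groups lie close together, with Ftl1 highest and Mgst1 lowest; values of 0 are not drawn.

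Neither kind of BDEV was followed by a joint rise of these genes. For SE-BDEV against Vehicle, limma put 0 of the 38 tested genes past an adjusted p of 0.05, where 0.919% of all 11311 tested genes passed (0.292% rose and 0.628% fell). At an unadjusted p under 0.05 there were 14, with 3 higher and 11 lower. Over all genes 14.8% met that mark, 897 of them higher and 779 lower. The authors' deposited table gave a q-value under 0.05 to 1 of the 39 genes, Gstp1, and to 140 of the 11928 genes that it tested. Without SE-BDEV replicate 2, 3 genes passed (Ftl1 rose, Gpx1 and Gsto1 fell), where 2.79% of all genes then did. Without SE-BDEV replicate 3 only Gstp1 did, beside 0.442% of all genes, and without any other library 0 did. In all, 11 genes were higher and 27 (71.1%) lower than in Vehicle, where 45.4% of all genes tested were lower. The median log2 fold change was -0.05, beside 0.01 over all genes tested. Every log2 fold change was taken on log2(FPKM + 1), so that of a gene with a low level comes out too small.

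For CON-BDEV against Vehicle, 2 of the 38 passed, where 2.84% of all 11320 tested genes did. Ftl1 rose, as did 1.02% of all genes, and Tkt, a transketolase, fell, as did 1.82%. At an unadjusted p under 0.05 there were 12, with 2 higher and 10 lower. Over all genes 19.1% met that mark, 1084 of them higher and 1082 lower. Without CON-BDEV replicate 1, 4 genes passed (Ftl1 rose; Gss, Gsto1 and Tkt fell), where 4.91% of all genes then did. Without Vehicle replicate 2, Blvrb and Tkt fell, beside 1.44% of all genes that passed. Without Vehicle replicate 4 only Ftl1 passed, beside 1.42%, and without CON-BDEV replicate 4 or Vehicle replicates 1 or 3 there were 0. The q-value in the authors' deposited table was under 0.05 for 0 of the 39 genes, and for 215 of the 11912 genes that it tested. Here 15 genes were higher and 23 (60.5%) lower, where 48.0% of all genes tested were lower. The median log2 fold change was -0.02, beside 0.00 over all genes tested. Both comparisons used the same 4 Vehicle libraries, so their values are given side by side and are not independent of each other.

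**Figure D2:**
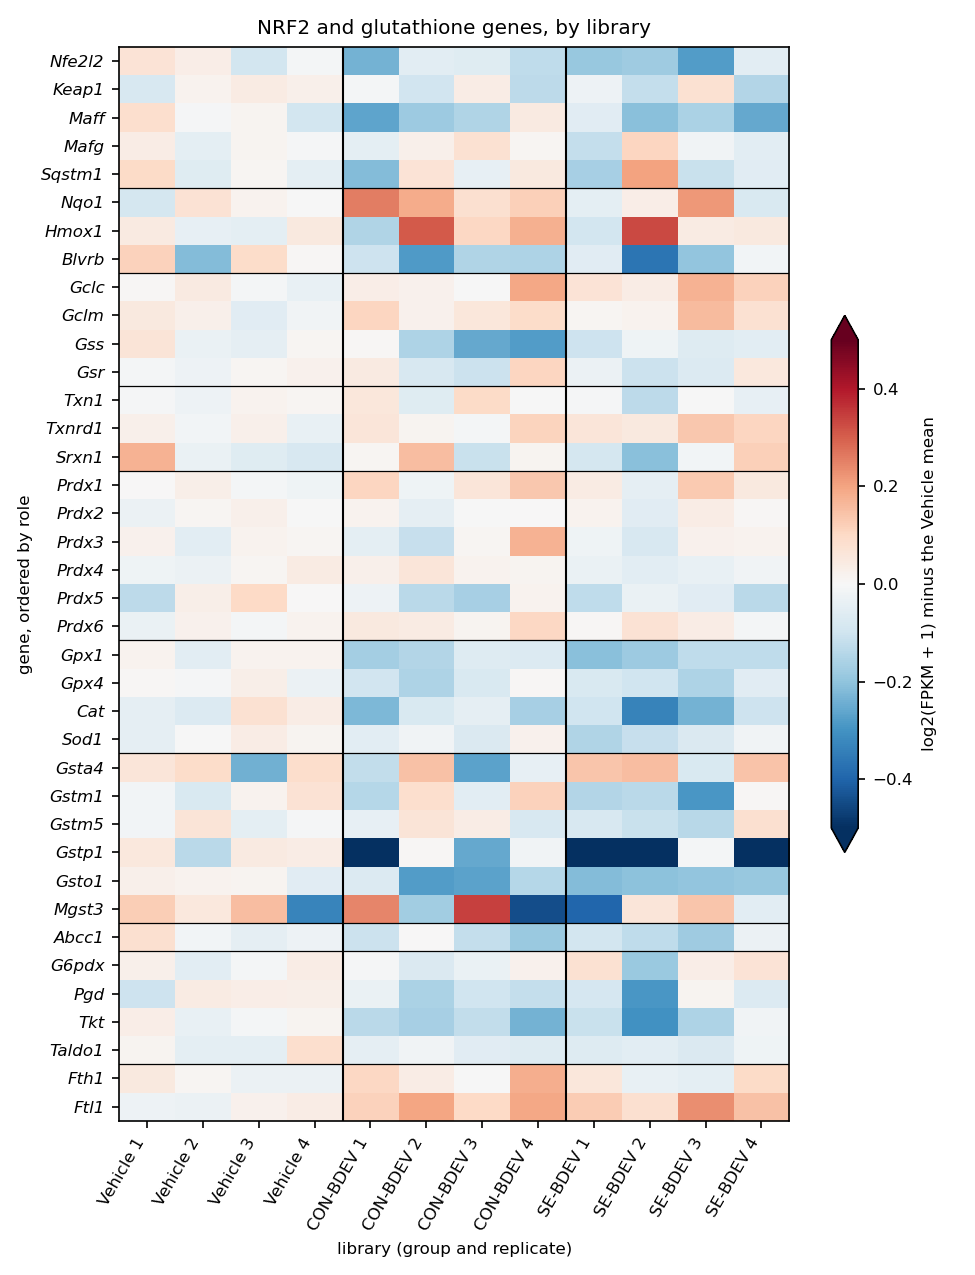
Each cell is log2(FPKM + 1) of 1 gene in 1 library minus the mean of the 4 Vehicle libraries, for the 38 tested genes ordered by role; red is higher, blue is lower, and colours saturate at 0.5. Ftl1 and Gclm are above the Vehicle mean in all 8 BDEV libraries, 7 genes (Nfe2l2, Blvrb, Gpx1, Cat, Gsto1, Tkt and Taldo1) are below it in all 8, and the other rows are mixed. The share of all tested genes with such rows was not computed. The same Vehicle mean serves all 8, so the counts alone say nothing particular about these genes.

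The regulators did not pass the test in either comparison with Vehicle. Nfe2l2 (chr2:75513575-75542698 on mm9, as are all positions of genes from here on) stood at 24.8, 24.2, 22.1 and 23.5 FPKM in the Vehicle libraries. It was at 20.6, 20.8, 19.3 and 22.7 FPKM in SE-BDEV and at 19.9, 22.8, 22.6 and 21.6 FPKM in CON-BDEV. In SE-BDEV 3 of 4 libraries lay below every Vehicle library, and only replicate 4 overlapped with them. The log2 fold change was -0.18 ± 0.05 (SE; limma adjusted p = 0.172) with SE-BDEV and -0.12 ± 0.05 (limma adjusted p = 0.220) with CON-BDEV. Keap1 (chr9:21034173-21043776) had log2 fold changes of -0.05 ± 0.05 and -0.05 ± 0.05, with BDEV libraries on both sides of the Vehicle range only in SE-BDEV. Of the small MAF partners, Maff (chr15:79177050-79189506) stood at 8.72, 7.75, 8.05 and 7.45 FPKM with SE-BDEV and 9.72, 9.05, 9.21 and 8.47 FPKM with Vehicle. That is a log2 fold change of -0.17 ± 0.06 (limma adjusted p = 0.213), and with CON-BDEV it was -0.14 ± 0.07 (limma adjusted p = 0.290). Mafg and Sqstm1, whose product p62 sequesters KEAP1, had log2 fold changes between -0.03 and 0.02 in both comparisons.

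The quinone and haem enzymes moved in different directions, and none of the 3 passed. Nqo1 (chr8:109780063-110082495), the quinone reductase most often used as an NRF2 readout, was at 10.1, 9.62, 8.87 and 9.14 FPKM with CON-BDEV. The Vehicle libraries gave 7.78, 8.83, 8.45 and 8.32 FPKM and the SE-BDEV libraries 8.03, 8.55, 9.86 and 7.87 FPKM. All 4 CON-BDEV libraries lay above all 4 Vehicle libraries, as did all 4 for 5.68% of all genes tested, and the log2 fold change was 0.16 ± 0.05 (limma adjusted p = 0.133). With SE-BDEV it was 0.03 ± 0.07 (limma adjusted p = 0.871), and only replicate 3 stood above the Vehicle range. The Nqo1 entry of the deposited tables spans the neighbouring genes Nob1, Nfat5 and Wwp2 with means of 72.6, 26.5 and 19.1 FPKM, so its value is uncertain.

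Hmox1 (chr8:77617516-77624492), haem oxygenase 1, varied between the single libraries of both BDEV groups. It stood at 45.2, 61.0, 49.6 and 50.001 FPKM in SE-BDEV, at 43.4, 59.9, 51.9 and 54.8 FPKM in CON-BDEV, and at 49.8, 46.9, 46.5 and 49.9 FPKM in Vehicle. Replicate 2 was the highest library of either BDEV group and replicate 1 fell below every Vehicle library in both. The log2 fold changes were 0.08 ± 0.08 (limma adjusted p = 0.655) and 0.11 ± 0.08 (limma adjusted p = 0.481). Blvrb (chr7:28232996-28251000), a biliverdin and flavin reductase, was lower on average with either BDEV kind, at 28.2 ± 3.14 FPKM with SE-BDEV and 27.8 ± 1.52 FPKM with CON-BDEV against 31.5 ± 3.27 FPKM (SD, n = 4 each). Its groups overlapped, with Vehicle replicate 2 at 26.9 FPKM. Its log2 fold changes were -0.16 ± 0.09 and -0.17 ± 0.07 (limma adjusted p = 0.435 and 0.202).

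Glutathione synthesis was represented by the 2 subunits of its rate-limiting ligase and by glutathione synthetase. The catalytic subunit Gclc (chr9:77602341-77642296) stood at 33.9, 33.2, 36.6 and 35.1 FPKM with SE-BDEV, at 33.1, 32.8, 32.3 and 37.1 FPKM with CON-BDEV, and at 32.5, 33.3, 32.1 and 31.4 FPKM with Vehicle. Of the SE-BDEV libraries 3 lay above every Vehicle library, and of the CON-BDEV libraries only replicate 4 did. The modifier subunit Gclm (chr3:121948474-121970133), whose promoter match is printed above, gave 43.0, 43.1, 47.8 and 45.0 FPKM with SE-BDEV, 46.1, 43.3, 44.4 and 45.5 FPKM with CON-BDEV and 44.2, 43.4, 41.0 and 42.1 FPKM with Vehicle. Its groups overlapped, with 2 SE-BDEV and 3 CON-BDEV libraries above the Vehicle range. The log2 fold changes were 0.10 ± 0.04 for Gclc and 0.07 ± 0.04 for Gclm with SE-BDEV (limma adjusted p = 0.279 and 0.504). With CON-BDEV they were 0.06 ± 0.04 and 0.07 ± 0.03 (limma adjusted p = 0.481 and 0.292).

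The last enzyme of the pathway went the other way. Gss (chr2:155388916-155418546), which adds glycine, stood at 8.87, 7.85, 7.24 and 7.12 FPKM with CON-BDEV against 9.30, 8.63, 8.54 and 8.92 FPKM with Vehicle. CON-BDEV replicate 1 lay within the Vehicle range and the other 3 below it, and the log2 fold change was -0.17 ± 0.06 (limma adjusted p = 0.173). With SE-BDEV, where the values were 8.15 to 8.69 FPKM, it was -0.06 ± 0.05 (limma adjusted p = 0.572). Gsr, which returns oxidised glutathione to its reduced form, had log2 fold changes of -0.04 ± 0.04 and -0.01 ± 0.05 and did not pass.

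In the thioredoxin system 0 of 3 genes passed in either comparison. Txnrd1 (chr10:82296695-82360469), cytosolic thioredoxin reductase, stood at 136, 134, 143 and 140 FPKM with SE-BDEV and at 133, 129, 133 and 127 FPKM with Vehicle. All 4 SE-BDEV libraries lay above all 4 Vehicle libraries, as they did for 5.77% of all genes, and the log2 fold change was 0.09 ± 0.03 (limma adjusted p = 0.236). The CON-BDEV libraries, at 129 to 141 FPKM, overlapped with Vehicle, with 0.04 ± 0.03 (limma adjusted p = 0.490). Txn1 (chr4:57956244-57969283), thioredoxin, was at 226 ± 9.23 FPKM with SE-BDEV, 237 ± 11.2 FPKM with CON-BDEV and 233 ± 3.12 FPKM with Vehicle (SD, n = 4 each). Srxn1 (chr2:151931259-151937112), sulfiredoxin, which repairs overoxidised peroxiredoxins, gave 7.20, 6.54, 7.62 and 8.46 FPKM with SE-BDEV, 7.77, 8.69, 7.07 and 7.78 FPKM with CON-BDEV, and 8.81, 7.51, 7.35 and 7.25 FPKM with Vehicle. Its 3 groups overlapped throughout, and the log2 fold changes were -0.05 ± 0.08 and 0.02 ± 0.07.

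The 6 peroxiredoxins, which reduce hydrogen peroxide at the expense of thioredoxin or glutathione, stayed within -0.09 and 0.07 on the log2 scale in both comparisons, and none passed. Prdx1, the one with a promoter match, stood at 276 ± 13.5 FPKM with SE-BDEV and 281 ± 13.2 FPKM with CON-BDEV against 267 ± 4.01 FPKM with Vehicle (SD, n = 4 each). In each BDEV group 3 of its 4 libraries lay above the Vehicle range. SE-BDEV replicate 2 lay below it at 259 FPKM, while CON-BDEV replicate 2 was level with its lower end (263.478 against 263.51 FPKM). Prdx5 (chr19:6981308-6984135) had the most negative fold changes of the family, with -0.09 ± 0.05 for SE-BDEV and -0.08 ± 0.05 for CON-BDEV (limma adjusted p = 0.443 and 0.476). Prdx2 differed least between SE-BDEV and Vehicle, with means of 436 ± 12.4 and 435 ± 6.78 FPKM.

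The 4 enzymes that remove peroxide and superoxide directly were all lower in both BDEV groups, though none passed the test. Gpx1, the main cytosolic glutathione peroxidase (chr9:108241410-108242673), came closest in this role; it, Gpx4 and Gsto1 are outside the rule for named genes and were picked after their values were seen. Gpx1 stood at 86.4, 87.8, 91.4 and 91.4 FPKM with SE-BDEV and at 88.7, 90.2, 95.4 and 95.3 FPKM with CON-BDEV. The Vehicle libraries gave 101, 96.3, 101 and 101 FPKM, above every BDEV library. The log2 fold changes were -0.16 ± 0.03 (limma adjusted p = 0.0546) and -0.11 ± 0.03 (limma adjusted p = 0.0970). With SE-BDEV the limma adjusted p moved to 0.0391 without SE-BDEV replicate 2 and was 0.0597 to 0.184 without each of the other libraries in turn. It was also below the threshold with a filter of 5 FPKM (0.0474), with median scaling (0.0407) and with all 12 libraries in the fit (0.0329). The authors' deposited tables gave q-values of 0.453 with SE-BDEV and 0.613 with CON-BDEV.

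Gpx4, which protects membrane lipids from peroxidation, and catalase (Cat, chr2:103294060-103325310) also did not overlap between SE-BDEV and Vehicle. Gpx4 was at 241 to 258 FPKM against 263 to 273 FPKM, with a log2 fold change of -0.10 ± 0.03 (limma adjusted p = 0.180). Cat stood at 11.8, 9.86, 10.6 and 11.8 FPKM with SE-BDEV, at 10.7, 12.001, 12.3 and 11.2 FPKM with CON-BDEV and at 12.3, 12.1, 13.4 and 13.1 FPKM with Vehicle. Its log2 fold changes were -0.19 ± 0.06 (limma adjusted p = 0.184) and -0.13 ± 0.05 (limma adjusted p = 0.208). Counting all members, 4 lay wholly below Vehicle with SE-BDEV (Gpx1, Gpx4, Cat and Gsto1), where 4.39% of all genes did, and 2 wholly above it (Txnrd1 and Ftl1), where 5.77% of all genes did. With CON-BDEV 3 lay wholly below (Gpx1, Gsto1 and Tkt), where 6.24% of all genes did, and 2 wholly above (Nqo1 and Ftl1), where 5.68% of all genes did.

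The glutathione transferases held the largest difference of the whole set, and also the largest scatter. Gstp1 (chr19:4035410-4037912), the pi-class transferase, stood at 165, 145, 165 and 163 FPKM in Vehicle. With SE-BDEV it was at 105, 107, 158 and 95.5 FPKM, so that 3 libraries lay far below Vehicle while replicate 3 lay within its range. With CON-BDEV it was at 108, 160, 133 and 157 FPKM, with replicates 1 and 3 below Vehicle and the others inside its range. The log2 fold change was -0.48 ± 0.13 (limma adjusted p = 0.122) for SE-BDEV and -0.21 ± 0.10 (limma adjusted p = 0.319) for CON-BDEV. Without SE-BDEV replicate 3 the first became -0.63 with an adjusted p of 0.00457, and without the other libraries in turn its adjusted p was 0.120 to 0.296. Without CON-BDEV replicate 1 the second became -0.09. In the authors' deposited table Gstp1 had a log2 fold change of -0.46 with a q-value of 0.00686 for SE-BDEV, and of -0.19 with a q-value of 0.150 for CON-BDEV. Its near-identical neighbour Gstp2 was at 0 to 0.662 FPKM.

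Gsto1 (chr19:47929478-47939278), the omega-class transferase, was more even. Its SE-BDEV libraries gave 8.89, 8.96, 9.03 and 9.07 FPKM, its CON-BDEV libraries 9.98, 8.47, 8.55 and 9.41 FPKM and its Vehicle libraries 10.7, 10.6, 10.6 and 10.1 FPKM. Every BDEV library lay below every Vehicle library. The log2 fold changes were -0.20 ± 0.04 (limma adjusted p = 0.0546) and -0.19 ± 0.05 (limma adjusted p = 0.0895). With SE-BDEV the limma adjusted p was 0.0474 with a filter of 5 FPKM, 0.0430 with median scaling and 0.0431 without SE-BDEV replicate 2. It was 0.0637 in 1 fit of all 12 libraries and 0.0806 to 0.178 without each of the other libraries in turn. With CON-BDEV it was 0.0303 without CON-BDEV replicate 1 and 0.131 to 0.203 without each of the other libraries in turn. The authors' deposited tables gave q-values of 0.606 with SE-BDEV and 0.423 with CON-BDEV. Of the other transferases tested, Gstm1, Gstm5, Gsta4 and Mgst3 had log2 fold changes from -0.14 to 0.09 with SE-BDEV and from -0.07 to 0.00 with CON-BDEV, and none passed. Abcc1 (chr16:14361650-14474971), a pump that exports glutathione conjugates, had -0.11 ± 0.04 and -0.10 ± 0.05 (limma adjusted p = 0.297 and 0.252).

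**Figure D3:**
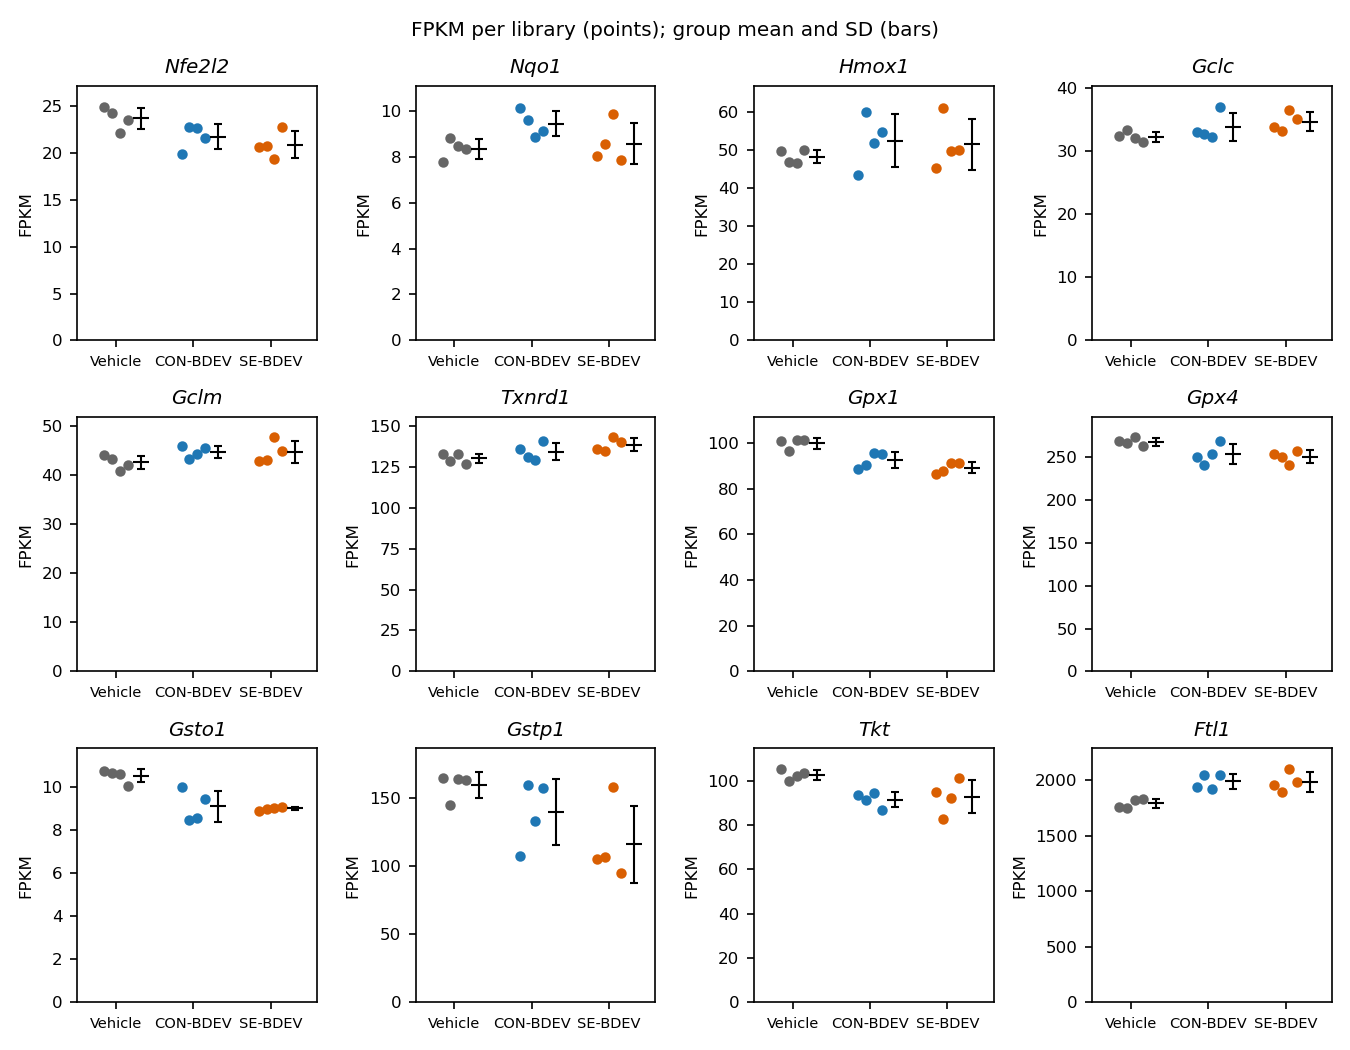
FPKM of 12 genes in each library (points) with the group mean and SD (bars, n = 4), on axes that start at 0. Gstp1 separates the libraries within the BDEV groups, with SE-BDEV replicate 3 at 158 FPKM beside 95.5 to 107 FPKM, whereas Gsto1 in SE-BDEV spans only 8.89 to 9.07 FPKM.

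The pentose phosphate pathway supplies NADPH for the reduction of glutathione and thioredoxin. Its 4 genes had log2 fold changes under 0 in both comparisons, though that of G6pdx with SE-BDEV was only -0.0015. Of these, 1 gene, Tkt, fell with CON-BDEV. Tkt (chr14:31362316-31387911), the transketolase of its second phase, stood at 93.4, 91.5, 94.3 and 86.9 FPKM with CON-BDEV and at 105, 100, 102 and 104 FPKM with Vehicle. All CON-BDEV libraries lay below all Vehicle libraries, with a log2 fold change of -0.17 ± 0.03 (limma adjusted p = 0.0219). The call was lost without CON-BDEV replicate 4 (limma adjusted p = 0.0503) and without Vehicle replicates 1, 3 or 4 (0.0778, 0.0636 and 0.0668), and in 1 fit of all 12 libraries (0.133), and the authors' deposited table gave a q-value of 0.204. SE-BDEV libraries gave 95.1, 83.0, 92.2 and 101 FPKM, of which replicate 4 overlapped with Vehicle, and the log2 fold change was -0.15 ± 0.05 (limma adjusted p = 0.232). G6pdx (chrX:71638629-71699117), the first enzyme of the pathway, stood at 64.5, 53.6, 62.6 and 64.2 FPKM with SE-BDEV against 62.3, 58.9, 60.7 and 62.7 FPKM with Vehicle. Its log2 fold changes were 0.00 ± 0.06 and -0.02 ± 0.03, and SE-BDEV replicate 2 was the lowest of all 12 libraries. Pgd and Taldo1 had log2 fold changes of -0.11 and -0.05 with SE-BDEV and of -0.10 and -0.05 with CON-BDEV and did not pass.

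The iron storage genes were higher in both comparisons, and 1 of the 2 rose. Ftl1 (chr7:52713313-52715256) stood at 1939, 2049, 1918 and 2043 FPKM with CON-BDEV, at 1951, 1893, 2101 and 1982 FPKM with SE-BDEV, and at 1756, 1750, 1816 and 1833 FPKM with Vehicle. All 8 BDEV libraries lay above all 4 Vehicle libraries. Ftl1 rose with CON-BDEV, by 0.15 ± 0.03 on the log2 scale (limma adjusted p = 0.0228), or 11.1% of the mean FPKM. With SE-BDEV the log2 fold change was 0.15 ± 0.04 (limma adjusted p = 0.0969). The call with CON-BDEV was lost without CON-BDEV replicate 4 (0.0767) and without Vehicle replicates 1, 2 or 3 (0.0826, 0.0824 and 0.0575), without a filter (0.109) and in 1 fit of all 12 libraries (0.0602), and with SE-BDEV Ftl1 passed without SE-BDEV replicate 2. The authors' deposited table gave q-values of 0.330 and 0.510. Fth1 (chr19:10055089-10059601) stood at 973, 931, 905 and 1029 FPKM with CON-BDEV, 942, 884, 877 and 968 FPKM with SE-BDEV and 939, 913, 888 and 888 FPKM with Vehicle. It overlapped between all groups, with log2 fold changes of 0.08 ± 0.04 and 0.02 ± 0.04 (limma adjusted p = 0.285 and 0.882).

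**Figure D4:**
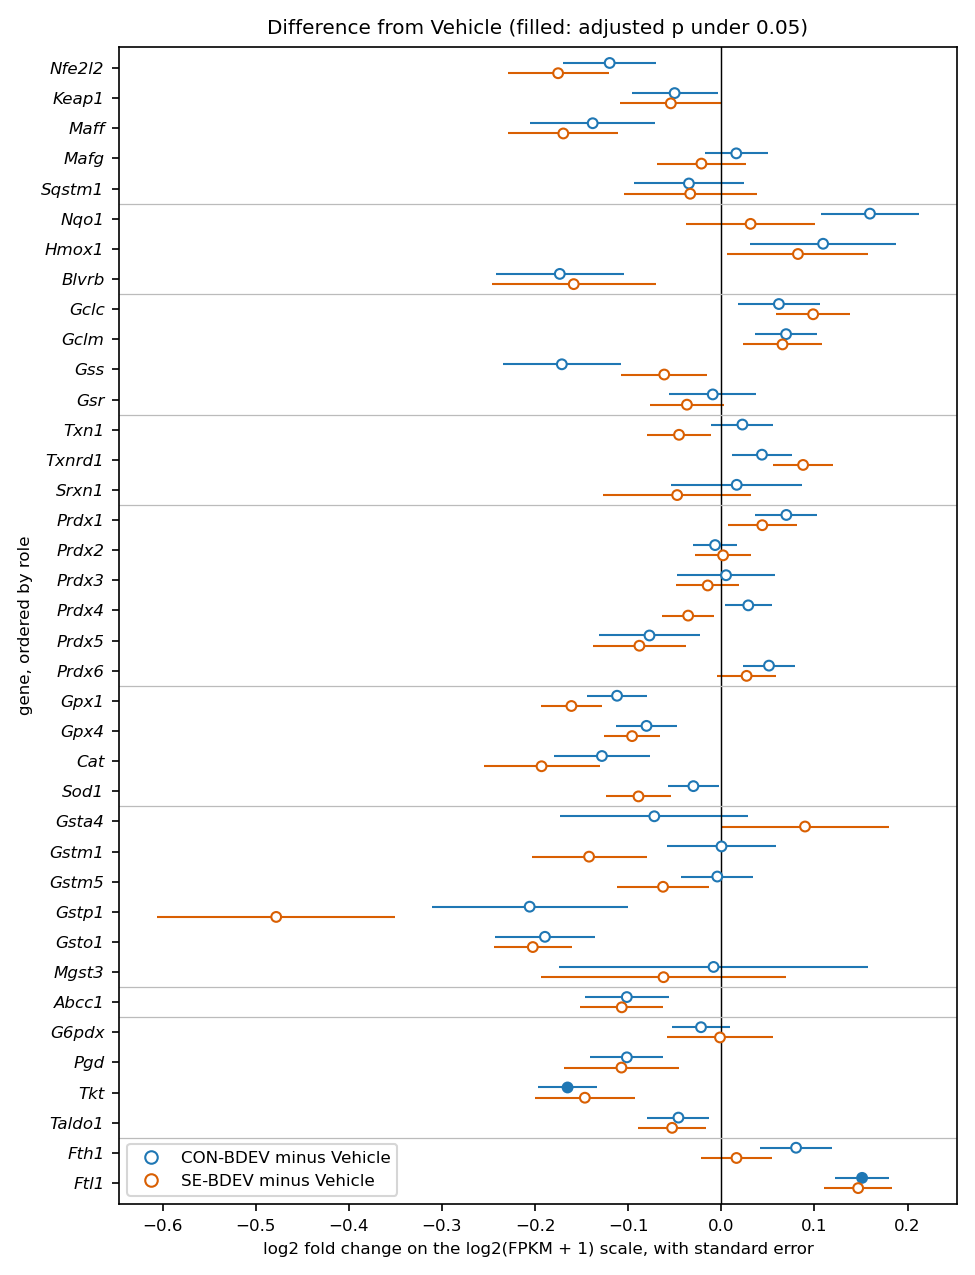
Log2 fold change against Vehicle with its standard error for the 38 tested genes, ordered by role, for CON-BDEV (blue) and SE-BDEV (orange), each over 4 against 4 libraries. Only Tkt and Ftl1 with CON-BDEV are filled, meaning an adjusted p under 0.05; Gstp1 with SE-BDEV lies farthest from 0 at -0.48.

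SE-BDEV and CON-BDEV were compared with each other over all 12 libraries to ask whether status epilepticus changed what the vesicles do to these genes. No difference was detected: 0 of 38 genes passed, as did 0% of all 11312 genes tested. At an unadjusted p under 0.05 there was 1 of the 38, beside 2.62% of all genes, and the authors' deposited tables hold no such comparison among those used here. SE-BDEV was higher for 9 genes and lower for 29 (76.3%), where it was lower for 45.7% of all genes tested. The median log2 difference was -0.02, beside 0.01 over all genes. The 1 gene was Prdx4 (chrX:151758462-151772997), the peroxiredoxin of the endoplasmic reticulum, at 197, 195, 197 and 199 FPKM with SE-BDEV against 205, 211, 204 and 204 FPKM with CON-BDEV. These groups did not overlap, as was so for 1.39% of all genes (SE-BDEV below for 0.628% and above for 0.760%), and the log2 difference was -0.06 ± 0.02 (limma adjusted p = 1.00).

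The 5 differences between the BDEV kinds that lay farthest from 0 had wide errors. Gstp1 was lower with SE-BDEV by a log2 difference of -0.27 ± 0.14, Gstm1 by -0.14 ± 0.07 and Nqo1 by -0.13 ± 0.07 (limma adjusted p = 1.00 for each). Gsta4 was higher with SE-BDEV, with 0.16 ± 0.10, as was Gss, with 0.11 ± 0.06; Gstm1 and Gsta4 are outside the rule for named genes. For Txn1 the difference was -0.07 ± 0.04, for Nfe2l2 -0.06 ± 0.06, for Ftl1 0.00 ± 0.04 and for Tkt 0.02 ± 0.05. Such p-values do not show that the 2 vesicle kinds act alike on these genes.

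The libraries differed in how often they held the highest or lowest value of a member. The same counts over all genes were not computed, so they say nothing particular about these genes. SE-BDEV replicate 2 was the lowest of the 12 libraries for 10 of the 38 genes, Blvrb, Txn1, Srxn1, Cat, G6pdx and Tkt among them, and the highest for 4 (Mafg, Sqstm1, Hmox1 and Gsta4). Vehicle replicate 1 was the highest for 9 and CON-BDEV replicate 4 for 7. The share of all FPKM that the 39 genes held ranged from 1.17% to 1.28% over the libraries. Over the 38 genes, the median SD of log2(FPKM + 1) within a group was 0.0468 for Vehicle, 0.0775 for CON-BDEV and 0.0699 for SE-BDEV. Over all 11312 genes it was 0.0565, 0.0739 and 0.0898 in the same order of groups.

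Beyond the 39 genes, a list of 100 further genes of the pathway was read off the same fits; 99 were found and 76 tested against Vehicle. With SE-BDEV 0 rose and 3 fell, and with CON-BDEV 1 rose and 3 fell, against 0.919% and 2.84% of all genes in either direction. The median log2 fold changes were 0.00 and -0.02. Idh1 (chr1:65205189-65233053), the cytosolic NADP-dependent isocitrate dehydrogenase and another source of NADPH, fell in both. It stood at 64.9, 59.6, 63.4 and 60.5 FPKM with Vehicle, 43.5, 34.0, 33.3 and 48.2 FPKM with SE-BDEV and 41.0, 41.9, 44.8 and 33.6 FPKM with CON-BDEV. Every BDEV library was below every Vehicle library, with log2 fold changes of -0.65 ± 0.10 (limma adjusted p = 0.0185) and -0.62 ± 0.07 (limma adjusted p = 0.00169). Leaving out each library kept the call with CON-BDEV (limma adjusted p up to 0.00961), whereas the call with SE-BDEV was lost without any 1 of the Vehicle libraries (up to 0.0847). The authors' deposited tables gave q-values of 0.00686 with SE-BDEV and 0.00505 with CON-BDEV.

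Other genes of NADPH supply and the thioredoxin system also fell. Txnrd3, a thioredoxin and glutathione reductase, was at 16.2, 16.5, 15.3 and 16.2 FPKM with Vehicle, 14.5, 12.2, 12.4 and 12.6 FPKM with SE-BDEV and 13.3, 12.4, 13.8 and 12.04 FPKM with CON-BDEV. Its log2 fold changes were -0.30 ± 0.06 (limma adjusted p = 0.0388) and -0.30 ± 0.05 (limma adjusted p = 0.00850). Rpia, ribose 5-phosphate isomerase of the pentose phosphate pathway, stood at 13.2 ± 0.668 FPKM with SE-BDEV against 17.1 ± 0.234 FPKM (SD, n = 4 each) and fell by 0.35 on the log2 scale (limma adjusted p = 0.0122). With CON-BDEV its log2 fold change was -0.27 (limma adjusted p = 0.0521), and the groups did not overlap there either. Me1, cytosolic malic enzyme, fell with CON-BDEV by 0.16 on the log2 scale (limma adjusted p = 0.0318) and had -0.19 with SE-BDEV (limma adjusted p = 0.0778). Txnrd3 with CON-BDEV passed without each library in turn. With SE-BDEV the Txnrd3 call was lost without SE-BDEV replicates 3 or 4 or any 1 Vehicle library (limma adjusted p up to 0.134). The Rpia call was lost without Vehicle replicates 1, 2 or 3 (up to 0.0653), while with CON-BDEV Rpia passed without CON-BDEV replicate 3 (0.0271). The Me1 call was lost without CON-BDEV replicates 3 or 4 or any 1 Vehicle library (up to 0.0970), and with SE-BDEV Me1 passed without SE-BDEV replicate 4 (0.0418). In the authors' deposited tables the q-values with SE-BDEV and CON-BDEV were 0.0242 and 0.00505 for Txnrd3 and 0.00686 and 0.0350 for Rpia. For Me1 they were 0.237 and 0.242.

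Msrb2, a mitochondrial methionine sulfoxide reductase, was the only one of the 76 that rose in these fits. It stood at 13.5, 12.8, 12.3 and 14.2 FPKM with CON-BDEV against 10.5, 11.1, 11.7 and 10.2 FPKM with Vehicle, with a log2 fold change of 0.26 ± 0.06 (limma adjusted p = 0.0341). With SE-BDEV it was 0.27 ± 0.08 (limma adjusted p = 0.149), and replicate 4 overlapped with Vehicle. The call with CON-BDEV was lost without CON-BDEV replicate 4 or Vehicle replicates 1, 2 or 4 (limma adjusted p up to 0.107). It was also lost without a filter (0.0852) and in 1 fit of all 12 libraries (0.115). The authors' deposited tables gave q-values of 0.134 with CON-BDEV and 0.223 with SE-BDEV. Between SE-BDEV and CON-BDEV 0 of 77 further genes passed, with 2 at an unadjusted p under 0.05.

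The authors' deposited tables called other genes of iron and amino acid handling, picked here after their values were seen. Slc40a1, the iron exporter ferroportin, had log2 fold changes of 0.66 with both SE-BDEV and CON-BDEV there (q-values of 0.00686 and 0.00505). Its level was low, at 1.93 ± 0.370 FPKM with SE-BDEV, 1.93 ± 0.324 FPKM with CON-BDEV and 1.22 ± 0.248 FPKM with Vehicle (SD, n = 4 each). The BDEV libraries did not overlap with Vehicle, but the gene did not pass in limma (adjusted p = 0.151 and 0.0832). Tfrc, the transferrin receptor, was called with SE-BDEV in the authors' deposited table (log2 fold change 0.32, q-value 0.00686), where its SE-BDEV libraries ranged from 21.5 to 50.2 FPKM around Vehicle values of 27.9 to 32.5 FPKM. Chac1, which degrades glutathione, and Sesn2, a stress-induced sestrin, were called with CON-BDEV there (log2 fold changes 0.36 and 0.35, q-value 0.00505 for each). Their CON-BDEV libraries ranged from 49.5 to 103 FPKM and from 25.3 to 41.4 FPKM, overlapping with Vehicle, and limma gave adjusted p = 0.378 and 0.204.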

How the data were processed

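Per the submitters' processing notes, the authors made the deposited FPKM values with TopHat2 and Cuffdiff (no versions stated) and the build was mm9. Libraries came from column-purified, polyadenylated RNA and a kit that preserves strand, per the labels' protocols. Which annotation was used, and whether counting used strand, is not given in these sources. One table held SE-BDEV and Vehicle, the other CON-BDEV and Vehicle. The Vehicle values of the tested members differed between the tables by at most 0.0340%, and their mean was used where all 12 libraries entered. The authors' deposited tables of Cuffdiff results give group FPKM, log2 fold changes, p-values, q-values and a test score that was not used.

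The test was limma 3.58.1 (R 4.3.3; empirical Bayes with a trend, two-sided) applied to log2(FPKM + 1). Genes averaging 1 FPKM or more entered, with Benjamini-Hochberg adjustment over all genes tested and a threshold of 0.05. The scripts were tested on simulated data. Depth was estimated from values up to 0.05 FPKM of genes with transcripts of 1500 to 8000 bases in a newer annotation, and is approximate. Figures used matplotlib 3.10.9. The members, the further genes and the markers were chosen with earlier results of these data known. Named in full were members past the threshold, Nfe2l2, Keap1, 6 common target readouts (Nqo1, Hmox1, Gclc, Gclm, Srxn1 and Txnrd1), the member with the largest change in each role and comparison, and further genes past the threshold. Alternatives covered the replicate block, pseudocount, filter, scaling, libraries in the fit and each library left out.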

Additional observations from a re-analysis of the deposited data

Results flagged for a closer look

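Of 114 groups of 4 libraries (38 genes in 3 groups), 8 (7.02%) had a library that stood far from the other 3 by Dixon's criterion; chance gives about 1 in 20. Gclc was at 37.1 FPKM in CON-BDEV replicate 4, beside 32.3 to 33.1 FPKM in the others. Srxn1 was at 8.81 FPKM in Vehicle replicate 1, beside 7.25 to 7.51 FPKM. Vehicle replicate 2 was low for 3 genes: Prdx3 at 97.3 FPKM beside 102 to 103 FPKM, Gpx1 at 96.3 FPKM beside 101.1 to 101.2 FPKM, and Gstp1 at 145 FPKM beside 163 to 165 FPKM. Gsta4 was at 3.45 FPKM in SE-BDEV replicate 3, beside 4.15 to 4.20 FPKM, and at 2.96 FPKM in Vehicle replicate 3, beside 3.89 to 3.99 FPKM. Pgd was at 83.2 FPKM in Vehicle replicate 1, beside 91.3 to 91.9 FPKM.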

How the results depend on the processing

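Same-numbered libraries deviated together with r between -0.12 and 0.30. Per comparison, 0, 0 and 2 of 4 SE-BDEV or CON-BDEV libraries correlated best with their own number. For SE-BDEV against CON-BDEV, r was 0.196 and 0.298 for replicates 1 and 2. It was -0.0738 and -0.123 for replicates 3 and 4, and at most 0.181 between unlike numbers. The reported fits left the libraries unpaired, but these values do not settle whether the 2 BDEV groups are paired. With the replicate number as a block, 48 genes passed for SE-BDEV and 135 for CON-BDEV (104 and 321 without it), with 0 members in either, 0 genes for SE-BDEV against CON-BDEV, and limma adjusted p above the threshold for Tkt (0.0689), Ftl1 (0.0770), Msrb2 (0.114) and Me1 (0.0736) with CON-BDEV and for Txnrd3 (0.0830) with SE-BDEV. Without a filter 0 and 176 genes and 0 and 1 members (Tkt) passed, with 2021 genes for SE-BDEV at an unadjusted limma p under 0.05; in 1 fit of all 12 libraries 171 and 133 genes and 1 (Gpx1) and 0 members did. For SE-BDEV 2 members (Gpx1 and Gsto1) fell with a filter of 5 FPKM or with median scaling, where 1.52% and 1.18% of all genes passed in either direction. By the authors' q-value 140 and 215 genes and 1 and 0 members passed. Leaving out each library gave 5 to 315 genes and 0 to 3 members for SE-BDEV (315 without SE-BDEV replicate 2; 55 and 50 without SE-BDEV replicates 1 and 3; 6, 5, 7 and 16 without Vehicle replicates 1 to 4), and 134 to 556 genes and 0 to 4 members for CON-BDEV (556, 201 and 156 without CON-BDEV replicates 1, 3 and 4; 134, 163, 140 and 161 without Vehicle replicates 1 to 4). SE-BDEV against CON-BDEV kept 0 genes throughout, with 276 to 877 at an unadjusted p under 0.05 without 1 library. The cause of these shifts was not tested; fewer libraries and more genes are part of those settings.

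Of 1092 alternative values of 78 single-gene results, 986 kept direction and side of the threshold, 46 lost the call, 8 gained it and 52 changed sign, none of these past the threshold in the reported fit. For SE-BDEV against Vehicle, leaving out 1 library gave log2 fold changes of -0.031 to 0.067 for Nqo1, -0.00079 to 0.141 for Hmox1, -0.103 to 0.0099 for Srxn1, -0.028 to 0.060 for G6pdx, -0.0097 to 0.037 for Fth1. For CON-BDEV against Vehicle, leaving out 1 library gave log2 fold changes of -0.0022 to 0.050 for Txn1, -0.029 to 0.074 for Srxn1. For SE-BDEV against CON-BDEV, leaving out 1 library gave log2 fold changes of -0.048 to 0.027 for Keap1, -0.074 to 0.029 for Maff, -0.113 to 0.038 for Hmox1, -0.033 to 0.084 for Blvrb, -0.035 to 0.014 for Gclm, -0.040 to 0.021 for Prdx5, -0.033 to 0.029 for Abcc1, -0.0059 to 0.082 for G6pdx, -0.024 to 0.071 for Tkt, -0.033 to 0.017 for Ftl1, -0.050 to 0.033 for Txnrd3, -0.054 to 0.069 for Msrb2, -0.127 to 0.047 for Idh1. Txnrd3 for SE-BDEV against CON-BDEV was -0.0050 with median scaling.

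The estimated depth was 12300000 to 15300000 fragments a library, and Mgst1 stood at or under 0.353 FPKM. How far depth and the 4 libraries a group each limit the precision of the genes was not tested.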
